A study of Mus musculus with 6 samples.

Results

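The genes described here are the proteasome's subunits, activators and assembly factors in mouse liver. They were taken by symbol from the gene families Psma, Psmb, Psmc, Psmd, Psme, Psmf and Psmg, which gave 49 of the 18193 genes with a probe set of their own. Of these, 47 are proteasome genes. The other 2 matched by symbol only, Psmc3ip, a meiotic recombination factor, and Psme3ip1, a protein that binds Psme3. Livers came from 8-week-old male C57BL/6J mice in 3 groups of 2 arrays each, fed wild-type, wild-type deprived of food for 24 h, and Cnot3+/- mice (heterozygous for a subunit of the CCR4-NOT deadenylase) deprived of food for 24 h. All were kept on normal chow, and no fed Cnot3+/- liver was analysed here, so genotype was compared in fasted liver alone.

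The proteasome is the barrel-shaped protease that breaks down ubiquitin-tagged proteins. Its core is built from rings of alpha and beta subunits, and some of the beta subunits cut peptide bonds. The cap (regulatory particle) sits on the core. Its base holds ATPases that unfold the substrate, and its lid removes the ubiquitin chain. Interferon gamma replaces the catalytic beta subunits by the immune forms Psmb8, Psmb9 and Psmb10, which favour peptides for MHC class I. Activators of the Psme family open the core without ubiquitin, and assembly factors hold subunits in place while the particle is built. In fasted liver the proteasome and autophagy both supply amino acids.

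In fasted wild-type liver the genes of the cap were higher together, and the differences of the constitutive core genes were centred near 0. Within the core, 4 of the 8 alpha ring genes were also higher without overlap between the groups and 1 was lower, beside 27.1% and 23.7% of all genes. The differences of the immune catalytic subunits and of the activators were below 0. For the activators Psme3 and Psme4, other bright probe sets lay above 0. Levels are RMA log2 values, so a difference of 1 is 2-fold. A gene is said to rise or fall where limma's adjusted p was under 0.05. Of the 49 genes, 2 rose (Psmd9 and Psmd4) and 1 fell (Psmb10). Over all genes tested, 1.87% rose and 3.15% fell. Between the fasted genotypes none of the 49 changed (1 had an unadjusted p under 0.05), and 0% of all genes were called in either direction.

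**Figure D1:**
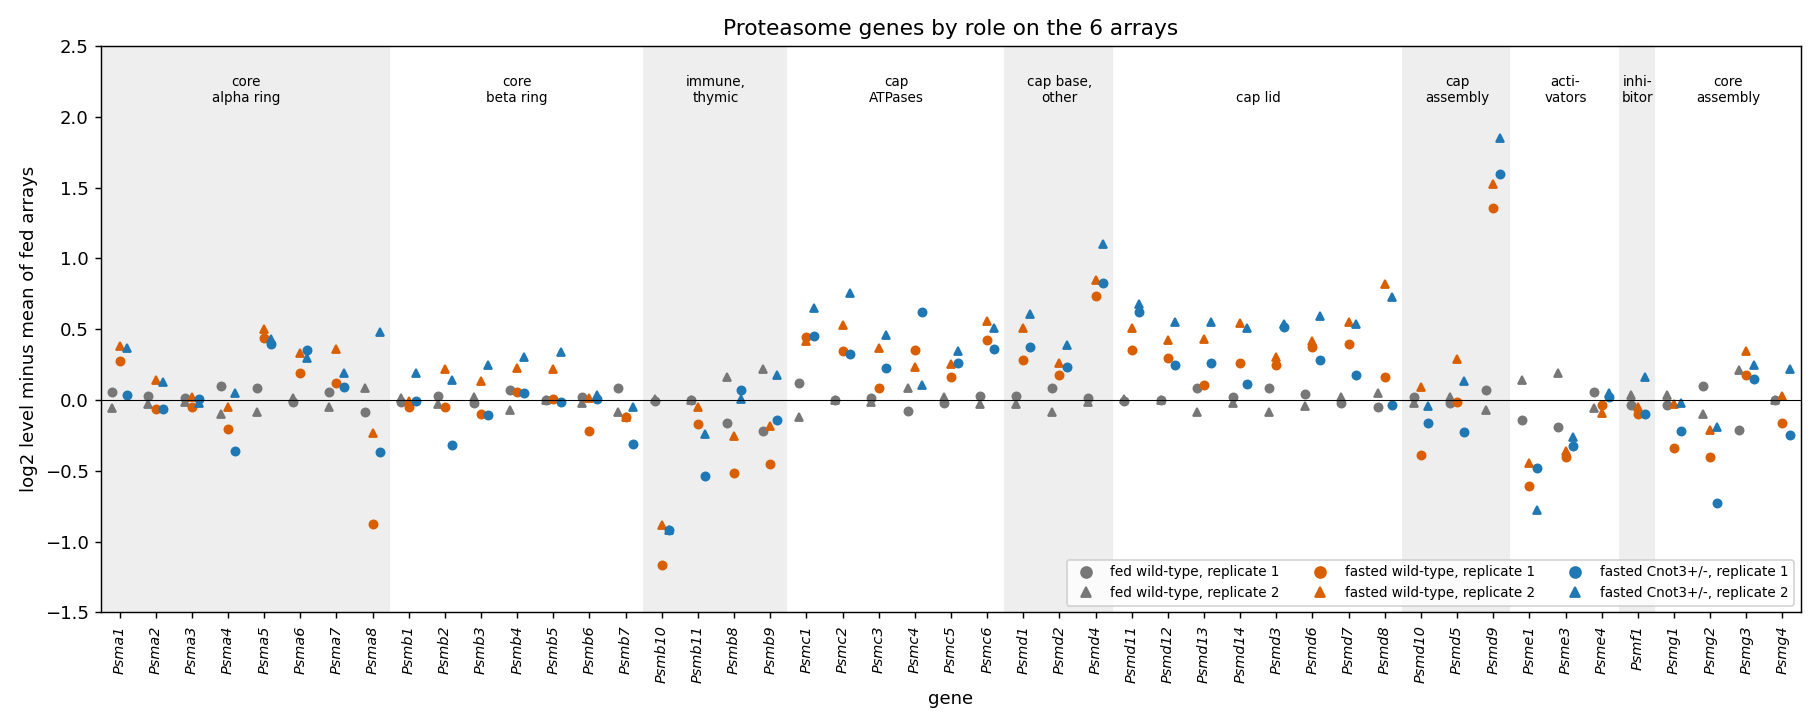
Log2 level of the 47 proteasome genes minus the gene's mean on the 2 fed arrays (vertical axis), grouped by role along the horizontal axis; circles are replicate 1 and triangles replicate 2, grey for fed wild-type, orange for fasted wild-type and blue for fasted Cnot3+/-. The 17 cap subunits lie above the fed arrays in fasted wild-type liver, Psmd9 stands highest and Psmb10 lowest.

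The promoters of the 3 genes that passed on fasting are shown because they were the only members called in wild-type liver. They are the 250 bases before the start in RefSeq, assembly GRCm38.p6, in the 5' to 3' direction of the gene. Capitals mark matches, on either strand, to the antioxidant response element core (TGACNNNGC), which Nfe2l1 binds with small Maf proteins, the CCAAT box (CCAAT) and the core of the interferon-stimulated response element (GAAANNGAA). Psmd4 lies at chr3:95042615-95042864 on the minus strand, Psmd9 at chr5:123227940-123228189 on the plus strand and Psmb10 at chr8:105938393-105938642 on the minus strand.
Psmd4: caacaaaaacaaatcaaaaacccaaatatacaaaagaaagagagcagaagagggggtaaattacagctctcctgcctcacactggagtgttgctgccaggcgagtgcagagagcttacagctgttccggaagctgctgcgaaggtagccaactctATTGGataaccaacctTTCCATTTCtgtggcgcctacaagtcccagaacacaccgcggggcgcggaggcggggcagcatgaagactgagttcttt
Psmd9: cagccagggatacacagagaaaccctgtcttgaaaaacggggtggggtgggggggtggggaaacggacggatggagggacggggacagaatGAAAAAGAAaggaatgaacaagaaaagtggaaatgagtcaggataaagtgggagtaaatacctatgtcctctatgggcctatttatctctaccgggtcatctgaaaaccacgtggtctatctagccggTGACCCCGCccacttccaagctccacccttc
Psmb10: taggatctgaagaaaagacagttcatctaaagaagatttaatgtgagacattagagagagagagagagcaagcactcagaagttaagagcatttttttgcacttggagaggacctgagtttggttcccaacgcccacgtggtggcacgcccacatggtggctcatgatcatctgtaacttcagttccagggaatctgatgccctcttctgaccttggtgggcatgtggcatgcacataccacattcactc
The Psmd4 window holds a CCAAT box and an interferon core, the Psmd9 window an interferon core and an antioxidant core, and the Psmb10 window none of the 3.

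The 2 arrays of each fasted group differed in a way that the members shared. In fasted wild-type liver the second array lay above the first for 44 of 49 members (89.8%), beside 54.3% of all genes, with a median gap of 0.16 for the members and 0.02 for all genes. In fasted Cnot3+/- liver it was again 44 of 49 (beside 56.4% of all genes), with median gaps of 0.23 and 0.04. In fed liver it was 20 of 49 (40.8%, beside 50.9%). The gap was alike in the core and the cap of fasted wild-type liver, with medians of 0.17 and 0.14. Of the 5 array controls for RNA integrity, 4 (actin, Gapdh, pyruvate carboxylase and transferrin receptor) had the larger 3' minus 5' difference on the first array of both fasted groups. The 18S control was larger on the second array in fasted wild-type liver (1.38 and 1.52) and on the first in fasted Cnot3+/- liver (1.59 and 1.49). The 3' minus 5' log2 difference of the pyruvate carboxylase control was 2.67 and 1.87 on the first and second fasted wild-type arrays, 4.12 and 2.81 on the fasted Cnot3+/- arrays, and 3.29 and 3.25 on the fed arrays. That of the actin control was 0.58 and 0.43, then 1.06 and 0.53, and 0.61 and 0.62. Their part in the members' levels was not tested. On the first array of the fasted groups, the median level against the fed mean was 0.30 and 0.29 for the cap subunits and -0.05 and -0.01 for the constitutive core subunits.

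All 17 of the cap's subunits (6 ATPases, 3 other base subunits and 8 lid subunits) were higher on both fasted wild-type arrays than on both fed arrays. Over all genes, 27.1% were higher in this way and 23.7% lower. The median difference of the 17 was 0.40, with a range from 0.21 to 0.79, beside a median of 0.02 over all genes. On single arrays, the median of the 17 genes against the fed mean was 0.30 and 0.43 in fasted wild-type liver, and 0.02 and -0.02 on the fed arrays. Only Psmd4 passed the test, and 10 of the 17 had an unadjusted p under 0.05, beside 3447 of all 18193 genes. The 17 are the cap genes with Psmc and Psmd symbols. Sem1, a small lid subunit that the symbols leave out, lay the other way, at 10.92 and 10.85 in fed and 10.58 and 10.57 in fasted wild-type liver (difference -0.31, SE 0.11, adjusted p = 0.203).

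**Figure D2:**
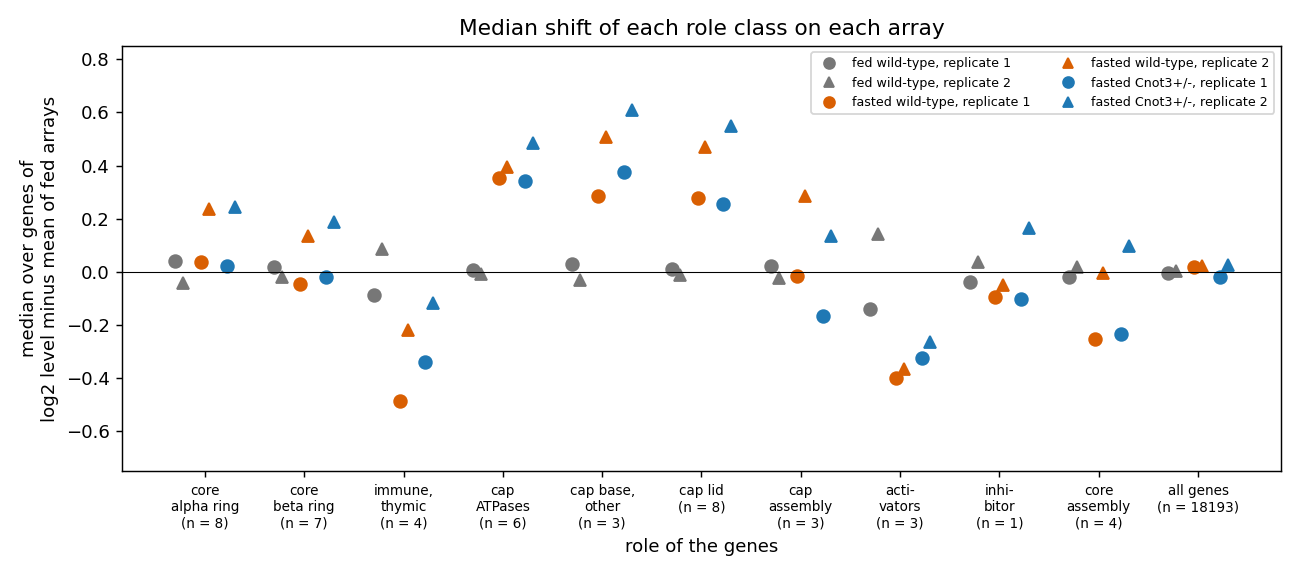
Median over the genes of each role class of the log2 level minus the mean of the fed arrays (vertical axis), for each array; symbols and colours as in the plot of single genes, and the number of genes stands under each class. The medians of the ATPases, other base subunits and lid lie above 0 on all 4 fasted arrays. Those of the immune and thymic subunits and of the activators lie below 0 on all 4. Psmb8 and Psmb9 alone differed by 0.04 and 0.02 between fasted Cnot3+/- and fed liver. The median of all 18193 genes stays within 0.03 of 0.

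Psmd4, a ubiquitin receptor of the base, had levels of 11.50 and 11.47 in fed liver, 12.22 and 12.33 in fasted wild-type liver, and 12.31 and 12.59 in fasted Cnot3+/- liver. All 4 fasted arrays lay above both fed arrays. It rose by 0.79 on fasting in wild-type liver (SE 0.14, 1.73-fold, adjusted p = 0.0225). Its other probe sets gave 0.80 and 0.72, so the rise does not hang on 1 probe set. The call was lost when any 1 of the 4 compared arrays was left out (adjusted p from 0.0849 to 0.148), with differences from 0.73 to 0.85.

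Among the ATPases, which ring the entrance to the core, the differences ran from 0.21 for Psmc5 to 0.49 for Psmc6. Psmc6 measured 11.25 and 11.19 in fed liver, 11.64 and 11.78 in fasted wild-type liver, and 11.58 and 11.73 in fasted Cnot3+/- liver. Its fasted and fed arrays did not overlap, but the difference (SE 0.12, adjusted p = 0.0726) missed the threshold. Its other probe sets gave 0.55 and 0.50. Psmc1 measured 11.27 and 11.03, then 11.59 and 11.57, then 11.60 and 11.80 in the same order of groups (difference on fasting 0.43, SE 0.14, adjusted p = 0.14). Psmc2 differed by 0.44, Psmc4 by 0.29 and Psmc3 by 0.22.

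The other base subunits are the scaffolds Psmd1 and Psmd2, which bind ubiquitin-like shuttle proteins, and they differed by 0.40 and 0.22. In the lid, Psmd11, which helps hold the lid to the base, measured 12.28 and 12.30 in fed liver, 12.65 and 12.80 in fasted wild-type liver, and 12.91 and 12.97 in fasted Cnot3+/- liver. On its brightest probe set the 3 groups did not overlap. Its difference on fasting in wild-type liver was 0.43 (SE 0.12, adjusted p = 0.0921). Its other bright probe sets gave 0.66, 0.66 and 0.20. The same contrast passed with a variance trend in the fit (adjusted p = 0.0466) and without the probe sets that several transcripts share (0.66, adjusted p = 0.0397).

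Psmd3, a scaffold of the lid, measured 10.64 and 10.47 in fed, 10.80 and 10.86 in fasted wild-type, and 11.07 and 11.09 in fasted Cnot3+/- liver. Its fasting difference in wild-type liver was 0.28 (SE 0.12, adjusted p = 0.272). Psmd14, the deubiquitinase of the lid, differed by 0.40. Psmd6 and Psmd7 differed by 0.40 and 0.47, and Psmd12 and Psmd13 by 0.36 and 0.27. Psmd8 had the widest spread in the lid. It measured 12.08 and 12.18 in fed liver and 12.29 and 12.95 in fasted wild-type liver (difference 0.49, SE 0.29, adjusted p = 0.428), and 12.09 and 12.86 in fasted Cnot3+/- liver, so that its fasted Cnot3+/- arrays overlapped the fed arrays.

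Psmd9, an assembly factor of the cap's base, had the largest difference of the 49 genes. It measured 9.42 and 9.28 in fed liver, 10.71 and 10.87 in fasted wild-type liver, and 10.95 and 11.20 in fasted Cnot3+/- liver. It rose by 1.44 (SE 0.14, 2.71-fold, 95% interval from 1.11 to 1.77, adjusted p = 0.00385). The call held when each array was left out in turn. One other probe set, which lay near the median gene, did not follow it, with levels from 6.67 to 6.90 over the 6 arrays and a difference of -0.01. A dim one gave 0.75. With the mean over its probe sets the difference was 0.73 and the adjusted p was 0.0591, so the rise rests on its brightest probe set. For the other cap assembly factors, fed and fasted wild-type arrays overlapped. Psmd5 differed by 0.14 and Psmd10 by -0.15.

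In the core, the 15 subunits other than the immune and thymic ones (called constitutive here, with the testis form Psma8 among them) had a median difference of 0.04 on fasting, 9 above 0 and 6 below, and none was called. Of these 15, 5 were higher and 2 lower without overlap between the groups, beside 27.1% and 23.7% of all genes. The median without the second fasted wild-type array was -0.05, and without the first 0.14. In the alpha ring, which gates the entrance, Psma5 measured 11.69 and 11.52 in fed, 12.05 and 12.10 in fasted wild-type, and 12.00 and 12.04 in fasted Cnot3+/- liver. Its difference was 0.47 (SE 0.12, adjusted p = 0.077), and another bright probe set gave 0.59. Psma1, Psma6 and Psma7 differed by 0.33, 0.26 and 0.24, and Psma2, Psma3 and Psma4 by 0.04, -0.01 and -0.13. Other probe sets above the median gene gave 0.73 for Psma1, 0.48 and 0.18 for Psma6 and 0.44 for Psma7. The alpha ring's median was 0.14, and 0.29 with the mean over probe sets.

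Psma8, the testis form of an alpha subunit, and Psmb11, the thymic beta subunit, had means over the 6 arrays under the array medians (5.59 to 5.64), and neither was shown to be above background. Psma8 measured 5.21 and 5.38 in fed, 4.42 and 5.06 in fasted wild-type, and 4.93 and 5.77 in fasted Cnot3+/- liver. Its second fasted Cnot3+/- array alone lay above the medians. The fed and fasted wild-type arrays did not overlap, and the difference was -0.55 (SE 0.30, adjusted p = 0.392). Psmb11 differed by -0.11. Of the genes matched by symbol only, Psmc3ip differed by -0.10 and Psme3ip1 by 0.08.

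In the beta ring, the catalytic subunits Psmb5, Psmb6 and Psmb7 differed on fasting by 0.11, -0.10 and -0.12, and the structural subunits Psmb1 and Psmb3 by -0.03 and 0.02. Psmb4, the smallest p of this class, measured 13.11 and 12.97 in fed, 13.10 and 13.27 in fasted wild-type, and 13.09 and 13.35 in fasted Cnot3+/- liver (difference 0.14, adjusted p = 0.676). Its groups overlapped. Psmb2 measured 11.46 and 11.41, then 11.39 and 11.66, then 11.12 and 11.57, and its fasting difference was 0.09 (adjusted p = 0.863). The 7 constitutive beta subunits had a median difference of 0.02.

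The immune catalytic subunits lay the other way. Psmb10, the immune form of the trypsin-like subunit, measured 10.52 and 10.54 in fed liver, 9.37 and 9.65 in fasted wild-type liver, and 9.61 and 9.61 in fasted Cnot3+/- liver. All 4 fasted arrays lay below both fed arrays. It fell by 1.02 (SE 0.13, 2.03-fold, 95% interval from -1.33 to -0.71, adjusted p = 0.00872). The constitutive counterpart, Psmb7, differed by -0.12. The call was lost without the first fasted wild-type array (-0.88, adjusted p = 0.079) and without the second fed array (-1.02, adjusted p = 0.0548).

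Psmb8, the immune form of the chymotrypsin-like subunit, measured 9.33 and 9.65 in fed, 8.98 and 9.24 in fasted wild-type, and 9.56 and 9.50 in fasted Cnot3+/- liver. The fed and fasted wild-type arrays did not overlap, and the difference of -0.38 (SE 0.16, adjusted p = 0.242) missed the threshold. Psmb9, the immune form of the caspase-like subunit, measured 8.92 and 9.37, then 8.69 and 8.96, then 9.0 and 9.32, and its groups overlapped (difference on fasting -0.32, SE 0.19, adjusted p = 0.448). The median of the 4 immune and thymic subunits was -0.35. It was -0.54 without the first fed array and -0.16 without the second.

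Of the activators, Psme1, which with Psme2 forms the ring that interferon gamma induces, measured 11.85 and 12.13 in fed, 11.38 and 11.55 in fasted wild-type, and 11.51 and 11.22 in fasted Cnot3+/- liver. All 4 fasted arrays lay below the fed arrays. The difference in wild-type liver was -0.53 (SE 0.16, adjusted p = 0.126). Psme2 could be read only on a probe set shared with Psme2b, so it is no member here. That probe set measured 11.59 and 11.77, then 11.06 and 11.22, then 11.18 and 11.03, in the same order of groups (difference on fasting -0.54, adjusted p over all probe sets 0.116).

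Psme3, the nuclear activator, measured 9.38 and 9.76 in fed, 9.17 and 9.21 in fasted wild-type, and 9.25 and 9.31 in fasted Cnot3+/- liver (difference on fasting -0.38, SE 0.15, adjusted p = 0.222), but another bright probe set gave 0.10. Psme4, an activator known from sperm development and DNA repair, measured 12.31 and 12.19, then 12.21 and 12.16, then 12.27 and 12.30 (difference -0.06, SE 0.12, adjusted p = 0.841), and its other bright probe sets gave 0.09 and 0.25. The 3 dim ones gave -0.32, -0.14 and -0.15. The activators' median of -0.38 was -0.09 with the mean over probe sets. Psmf1, an inhibitor of the core, measured 9.86 and 9.93, then 9.80 and 9.85, then 9.79 and 10.06 (difference -0.07, adjusted p = 0.841).

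Of the core's assembly factors, Psmg2 measured 10.15 and 9.96 in fed, 9.65 and 9.85 in fasted wild-type, and 9.33 and 9.86 in fasted Cnot3+/- liver. Its difference on fasting was -0.31 (SE 0.19, adjusted p = 0.464). Psmg1, its partner, differed by -0.18, Psmg4 by -0.07 and Psmg3 by 0.26. Pomp, the assembly factor of the core that the symbols leave out, differed by -0.25 (adjusted p = 0.344), with both fasted wild-type arrays (12.41 and 12.48) below both fed arrays (12.66 and 12.73).

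**Figure D3:**
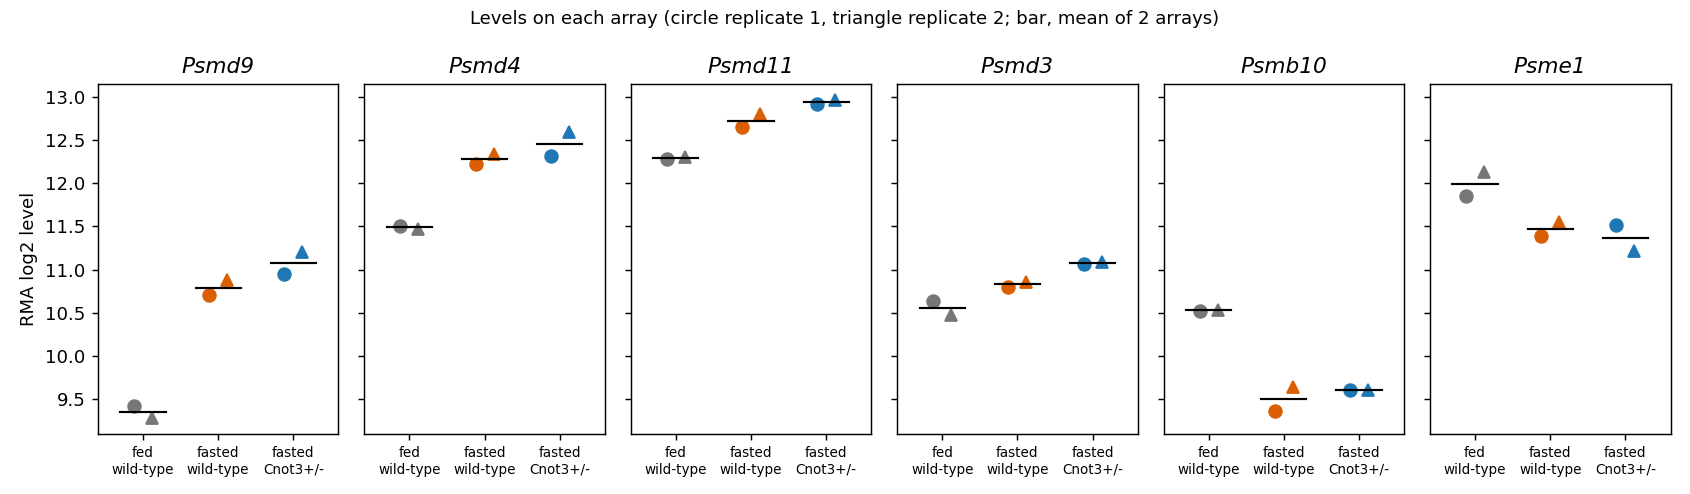
RMA log2 level (vertical axis) of Psmd9, Psmd4, Psmd11, Psmd3, Psmb10 and Psme1 on each array, by group along the horizontal axis; circles are replicate 1, triangles replicate 2, and the bar is the mean of 2 arrays. The first 4 genes are higher on the fasted arrays and the last 2 lower, with levels from 9.28 to 11.20 for Psmd9 and from 9.37 to 10.54 for Psmb10.

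Some genes that act with the proteasome rose as well. Of 10 proteasome genes with other symbols, 2 rose on fasting in wild-type liver and none fell. Zfand2a, a stress-induced zinc finger protein that binds the proteasome, measured 8.56 and 8.76 in fed, 10.03 and 10.39 in fasted wild-type, and 9.48 and 10.34 in fasted Cnot3+/- liver (difference 1.55, SE 0.27, adjusted p = 0.0249). Zfand5, which stimulates degradation by the proteasome, measured 10.74 and 10.35, then 11.29 and 11.35, then 11.17 and 11.25 (difference 0.78, SE 0.15, adjusted p = 0.0351). The median of the 10 was 0.05, with 5 above 0 and 5 below.

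Among 8 regulators of proteasome genes, 1 rose and all 8 differences were above 0, with a median of 0.34. Mafk, a small Maf partner of Nfe2l1 and Nfe2l2, measured 8.46 and 8.49 in fed, 9.0 and 9.03 in fasted wild-type, and 9.0 and 9.16 in fasted Cnot3+/- liver (difference 0.54, SE 0.12, adjusted p = 0.0483). Nfe2l1, the factor that induces proteasome genes when the proteasome is overloaded, measured 9.31 and 9.47, then 9.79 and 9.79, then 9.99 and 9.84, and its difference on fasting in wild-type liver was 0.40 (adjusted p = 0.134). Maff, another small Maf, measured 6.62 and 6.15, then 7.13 and 7.46, then 7.17 and 7.66 (difference 0.91, adjusted p = 0.0699).

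Of the 49 members, 41 had an entry in the promoter table, with 44 promoters of 300 bases, which include 50 after the start. The antioxidant core stood in 6 of the 44 (13.6%), beside 12.4% of all 32851 promoters of that length. The 6 are Psmb5, Psmb6, Psmc6, Psmd9, Psmd12 and Psme4. The CCAAT box stood in 36.4% of member promoters and 37.4% of all. The interferon core stood in 7 of the 44 (15.9%), beside 8.56% of all, and in none of the 4 promoters of immune and thymic subunits. The antioxidant cores of 5 genes are given below with 6 bases on each side, in capitals for the core and on the strand that reads TGAC, since the 5 span genes that were higher on fasting and genes that were not. The core of Psmd12 lies 247 bases before the start, too near the end of the window for its flank to be read.
Psmb5: aagttgTGACGTCGCggcgtt
Psmb6: agagagTGACGGAGCgcttta
Psmc6: aatgccTGACTTAGCtactgg
Psmd9: agccggTGACCCCGCccactt
Psme4: ttctggTGACGCTGCagccgc
They lie at chr14:54618028-54618048, chr11:70525342-70525362, chr14:45329591-45329611, chr5:123228153-123228173 and chr11:30771762-30771782. Psmd9, Psmc6, Psmd12 and Psmb5 differed on fasting by 1.44, 0.49, 0.36 and 0.11, each higher without overlap between the groups. Over all members, 24 of 49 were higher in this way, and 27.1% of all genes. Psmb6 and Psme4 differed by -0.10 and -0.06. Of the 6 genes with this core, 4 lay above 0, beside 61.2% of the members and 54.7% of all genes.

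Of 9 genes for ubiquitin and its shuttling, 1 rose, Nploc4, a cofactor of the Vcp unfoldase. It measured 9.48 and 9.65 in fed, 10.22 and 10.40 in fasted wild-type, and 10.16 and 10.40 in fasted Cnot3+/- liver (difference 0.74, SE 0.14, adjusted p = 0.0331). The calls of Zfand2a, Mafk and Nploc4 were lost when any 1 of the 4 compared arrays was left out, and that of Zfand5 when any but the first fed array was. Mafk also missed the threshold with a variance trend (adjusted p = 0.0783). None of 13 genes of antigen processing and the interferon gamma response changed. Their median difference was -0.16, with 6 above 0. Cxcl9, a chemokine that interferon gamma induces, had the smallest p, at 7.85 and 8.74 in fed, 6.83 and 7.23 in fasted wild-type, and 8.00 and 7.21 in fasted Cnot3+/- liver (difference on fasting -1.26, SE 0.35, adjusted p = 0.0949). Tap1, which shares its promoter region with Psmb9, differed by 0.36 (adjusted p = 0.406).

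Whole liver holds several cell types, and fewer cells of a type cannot be told apart from less RNA per cell. Immune cells express Psmb8, Psmb9, Psmb10 and Psme1 strongly, so markers of those cells were read beside them. The summed linear level of 13 macrophage and Kupffer cell markers was 7356 to 8702 in fed, 9908 to 10584 in fasted wild-type and 11882 to 17093 in fasted Cnot3+/- liver. On fasting in wild-type liver 12 of the 13 were higher, with a median difference of 0.37, and none passed. The 12 lymphocyte markers summed to 796 to 808, 782 to 820 and 821 to 953, with Cd3g, Cd79a, Ms4a1, Nkg7 and Gzma at or under the array medians. The 7 neutrophil markers summed to 294 to 308, 325 to 335 and 295 to 327, with 5 of the 7 (S100a8, Camp, Ngp, Ltf and Mmp8) at or under the medians. On fasting in wild-type liver, 5 of the 12 lymphocyte markers were above 0 and 7 below, with a median of -0.02. Without overlap between the groups, 1 was higher and 3 were lower, where the shares over all genes were 27.1% and 23.7%. The 9 hepatocyte markers, among them Alb and Apoa1, summed to 188828 to 203994, 206259 to 220512 and 208356 to 211115, and none changed on fasting. The sums in the same order of groups were 3272 to 3313, 3698 to 3852 and 3195 to 3736 for 8 endothelial markers and 4846 to 5156, 5093 to 5430 and 4923 to 6241 for 8 stellate cell markers. For 4 erythroid markers they were 1214 to 1499, 726 to 969 and 950 to 1129. Single markers moved within these sums on fasting in wild-type liver. Of the stellate cell markers, 6 of 8 were below 0 (median -0.54). Col3a1 and Col1a1, which encode collagens, fell by 2.32 (adjusted p = 0.0125) and 0.65 (adjusted p = 0.0286, a dim probe set), and Lrat, which stores retinol as esters, fell by 1.2 (adjusted p = 0.00497). Dcn, a matrix proteoglycan, rose by 0.61 (adjusted p = 0.0497). Of the endothelial markers, Lyve1, a hyaluronan receptor, rose by 1.58 (adjusted p = 0.00456), and none fell. The calls of Col3a1, Col1a1 and Dcn were lost when any 1 of the 4 compared arrays was left out, that of Lrat without the second fasted wild-type array (adjusted p = 0.0503) and that of Lyve1 without the first (adjusted p = 0.053). Col3a1 gave -0.51 (adjusted p = 0.0543) without shared probe sets, and Dcn 0.31 (adjusted p = 0.142) with the mean over probe sets. The part of cell make-up in the members' values was not tested.

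Between the fasted genotypes, no member passed and 1 of the 49 had an unadjusted p under 0.05, beside 1011 of all 18193 genes. The median difference of the members was 0.05, and 31 of the 49 (63.3%) were above 0, beside 49.6% of all genes. Of the members, 46 were brighter than the median gene. Among all 9096 such genes the median was 0.04, with 60.1% above 0. The groups did not overlap for 9 higher and 3 lower members, where the shares over all genes were 17.5% and 18.5%. Among the 9096 brighter genes, 2118 were higher and 1108 lower in this way. Cnot3 itself measured 9.27 and 9.32 in fasted wild-type and 9.40 and 9.16 in fasted Cnot3+/- liver, so its probe set did not separate the groups (difference -0.01, 95% interval from -0.33 to 0.30). The genotype was taken from the labels and is not borne out by this value. No source used here gives the deleted stretch of the gene.

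The 1 member was Psmb8, which was 0.42 higher in fasted Cnot3+/- than in fasted wild-type liver (SE 0.16, 95% interval from 0.05 to 0.79, adjusted p = 0.863). Its fasted Cnot3+/- arrays lay within the range of the fed arrays. Psmb9 differed by 0.34 (SE 0.19, adjusted p = 0.865), again without overlap between the fasted genotypes, while Psmb10 differed by 0.10 (95% interval from -0.21 to 0.42, adjusted p = 0.93). In the same contrast all 13 macrophage and Kupffer cell markers were higher, with a median difference of 0.45, and none passed. Their part in the values of Psmb8 and Psmb9 was not tested. In the antigen processing list, the median difference was 0.18 and the smallest p was that of Nlrc5, the transactivator of MHC class I genes (0.54, adjusted p = 0.863).

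The cap genes had a median difference of 0.09 between fasted Cnot3+/- and fasted wild-type liver, with 13 of 17 above 0 and none called. The median over genes brighter than the median gene was 0.04 in this contrast, with 60.1% above 0. Psmd3 differed by 0.25 (adjusted p = 0.863), Psmd11 by 0.22 (adjusted p = 0.865), Psmd4 by 0.17 (95% interval from -0.14 to 0.49, adjusted p = 0.876) and Psmc1 by 0.12 (adjusted p = 0.922). The other bright probe sets of Psmd11 gave 0.05, 0.05 and 0.12. Psmd9 differed by 0.28 (95% interval from -0.05 to 0.61, adjusted p = 0.863). The interval of Psmd9 leaves out a difference as large as its rise on fasting.

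In the core the median was 0.01, and Psmb2 differed by -0.18 (adjusted p = 0.907). The dim Psma8 differed by 0.61 (adjusted p = 0.863). Psme1, Psme3 and Psme4 differed by -0.10, 0.09 and 0.10, with adjusted p of 0.945, 0.946 and 0.927. Psmf1 differed by 0.10 (adjusted p = 0.931) and Psmg2 by -0.15 (adjusted p = 0.931). Of the other lists, Usp14, a deubiquitinase on the cap, differed by -0.26 (adjusted p = 0.865), Nfe2l2, the oxidative stress factor, by -0.35 (adjusted p = 0.863), and Uba6, a ubiquitin-activating enzyme, by 0.50 (adjusted p = 0.863). None of these differences passed, and a difference of the size seen on fasting for the single cap genes lies within several of the intervals.

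**Figure D4:**
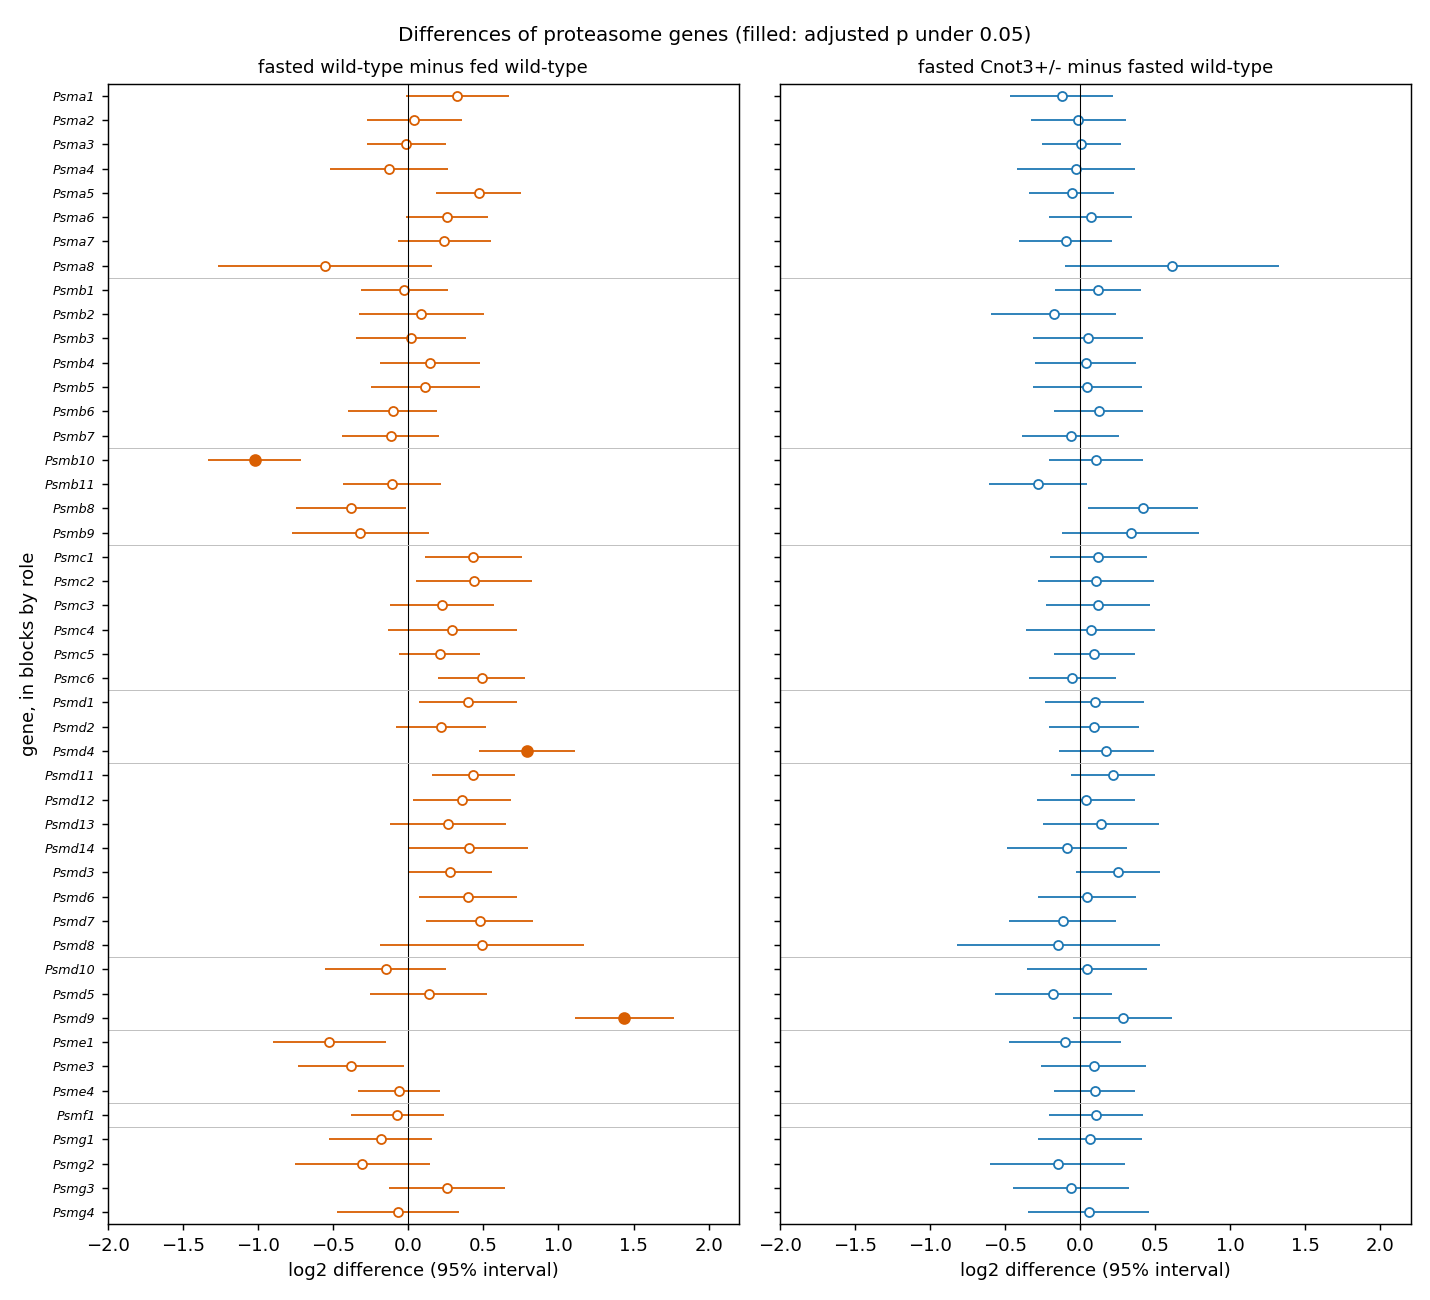
Log2 difference (horizontal axis) of the 47 proteasome genes, in blocks by role, for fasted wild-type minus fed wild-type (left, orange) and fasted Cnot3+/- minus fasted wild-type (right, blue); lines are 95% intervals and filled points have a limma adjusted p under 0.05. The 3 filled points are Psmb10, Psmd4 and Psmd9 in the left panel, and the right panel has none.

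Fasted Cnot3+/- liver was also set against fed wild-type liver, a contrast that joins fasting and genotype and shares its fed arrays with the fasting contrast. Of the 49 members, 4 rose and 1 fell. Over all genes, 3.88% rose and 3.68% fell. Psmd9 rose by 1.72 (3.30-fold, adjusted p = 0.00203), where it rose by 1.44 in wild-type liver. Psmd4 rose by 0.96 (1.95-fold, adjusted p = 0.00849), where it rose by 0.79. Psmb10 fell by 0.92 (1.89-fold, adjusted p = 0.00942), where it fell by 1.02.

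The others were Psmd11, which rose by 0.65 (SE 0.12, 1.57-fold, adjusted p = 0.0209), and Psmd3, which rose by 0.53 (SE 0.12, 1.44-fold, adjusted p = 0.0427). In wild-type liver these 2 missed the threshold, and the difference between the fasted genotypes was not called for either. The calls of Psmd11 and Psmd3 were lost when any 1 of the 4 compared arrays was left out. Psmd3 also lost its call when only the 2 groups were fitted (adjusted p = 0.0886) or the arrays were centred on brighter genes (adjusted p = 0.0763), and Psmd11 with the mean over probe sets (0.31, adjusted p = 0.147). The call of Psmb10 was lost without the second fed array (-0.91, adjusted p = 0.0519).

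Of the 17 cap genes, all were above 0 and 16 were higher without overlap, beside 24.6% of all genes (23.4% were lower). Their median was 0.40. The core's median was 0.07, that of the immune and thymic subunits -0.19 and that of the activators -0.29. In the immune and thymic class, Psmb10 differed by -0.92 and the dim Psmb11 by -0.39. Psmb8 and Psmb9 differed by 0.04 and 0.02, so they were near the fed level. In this contrast 6 of the 13 macrophage and Kupffer cell markers rose. Of the other lists, Zfand2a rose by 1.25 (adjusted p = 0.0377), Zfand5 by 0.67 (adjusted p = 0.0435), Nploc4 by 0.72 (adjusted p = 0.0274) and Mafk by 0.60 (adjusted p = 0.0263). Maff and Nfe2l1 rose by 1.03 (adjusted p = 0.0374) and 0.52 (adjusted p = 0.0487). Nfe2l1 lost its call when any 1 of the 4 compared arrays was left out, Zfand5 when any but the first fed array was, and the other 4 genes when any but the first fasted Cnot3+/- array was. Zfand5 also lost it with the mean over probe sets (0.38, adjusted p = 0.112) and centred on brighter genes (adjusted p = 0.0665), and Nfe2l1 with a variance trend (adjusted p = 0.0669) and with that centring (adjusted p = 0.064). All 6 lost it when only the 2 groups compared were fitted (adjusted p from 0.0548 to 0.099).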

How the data were processed

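The deposited values are log2 expression levels per probe set of an Affymetrix mouse array. RMA was the authors' method, per the submitters' processing notes, and its version is not given in the sources used here. cRNA was made, per the labels' protocols, from 10 ug of total liver RNA. The genome build behind the probe sets is not given in the sources used here. Each of 18193 genes was represented by its brightest probe set that names a single gene, out of 34945 such probe sets.

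One limma fit (limma 3.58.1, R 4.3.3) of the 6 arrays with 3 group means tested all genes (residual df 3, prior df 4.24), with Benjamini-Hochberg adjustment within each comparison at 0.05. The code was tested on simulated data. The labels call the arrays biological replicates and state no pairing. SE is the moderated standard error, and 2 arrays a group limit the precision.

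Members and lists were chosen with earlier results of these data known, so lists are described by counts and medians, with no test. Values on every array are given for members that passed in any comparison, for the smallest p of each class on fasting and between genotypes, and for immune subunits and activators. Psmd8 was named for its wide spread after its values were seen, and Sem1, Pomp, Tap1 and the called stellate and endothelial markers were also chosen after their values were seen. Alternatives were the mean over probe sets, probe sets not shared between transcripts, brighter genes alone, other scalings, a variance trend, the replicate block, only the 2 groups compared, and each array left out. Promoters came from RefSeq (GRCm38.p6), and 49 members matched by gene ID.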

Additional observations from a re-analysis of the deposited data

How the results depend on the processing

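Both fasted wild-type arrays lay above both fed arrays for all 17 cap genes. Leaving out 1 array therefore could not bring a fasting difference below 0. The median of the 17 ranged from 0.30 to 0.43 when each array was left out. Without 1 array, the genes called ranged from 137 to 1033 for fasting, 597 to 929 for fasted Cnot3+/- against fed liver and 0 to 2 between genotypes, and the members called from 1 to 3, from 2 to 4 and 0. With all arrays, 913 genes were called for fasting and 1375 for fasted Cnot3+/- against fed liver. Fewer arrays leave fewer residual degrees of freedom, but the counts did not all fall. Fitting only the 2 groups compared gave 857 genes for fasted Cnot3+/- against fed liver and 1033 for fasting. Leaving out either fasted Cnot3+/- array gave that same fit for fasting, since a group of 1 array adds nothing to the estimate of the spread. The same holds for fasted Cnot3+/- against fed liver without either fasted wild-type array. Why the 2 groups alone gave more genes for fasting than all arrays was not tested.

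The groups share replicate numbers, and the labels do not say what the numbers mean. Deviations from the group means correlated across genes at 0.04 (fed and fasted wild-type), 0.45 (fasted groups) and -0.01 (fed and fasted Cnot3+/-). With the replicate block, 1206, 0 and 1708 genes were called for fasting, genotype and fasted Cnot3+/- against fed liver, and 3, 0 and 5 members. The block lost the call of Nfe2l1 (adjusted p = 0.0535).

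Over all alternatives, class medians moved beyond the spread between arrays 19 times and stayed within it 527 times. The variance trend, the replicate block and fitting the compared groups alone cannot change a median difference. Nor can leaving out an array of the group not compared. The 527 include these fixed cases, so that count does not measure how robust the medians are. Among genes, only uncalled differences changed sign. With the mean over probe sets, Psma3 gave 0.29 and Psmf1 0.053 on fasting, and Psmd11 gave -0.0054 between genotypes. Without shared probe sets, Psma3 gave 0.60, Psmb1 0.13 and Psme4 0.086 on fasting, and Psme4 gave -0.15 and Psmg2 0.050 between genotypes. Centred on brighter genes, Psma3 gave 0.018 and Psmb1 0.0051 on fasting. Without 1 array, fasting differences ranged from -0.063 to 0.14 for Psma2, -0.048 to 0.022 for Psma3, -0.046 to 0.22 for Psmb2, -0.098 to 0.13 for Psmb3, -0.22 to 0.012 for Psmb6, -0.25 to 0.055 for Psmc3ip, -0.39 to 0.090 for Psmd10, -0.015 to 0.29 for Psmd5 and -0.16 to 0.025 for Psmg4. Genotype differences ranged from -0.035 to 0.24 for Psmb10, -0.40 to 0.052 for Psmb2, -0.25 to 0.047 for Psme1, -0.029 to 0.24 for Psmf1 and -0.42 to 0.12 for Psmg2. The cause was not tested.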
